A study of Mus musculus with 12 samples.

Results

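The Myc, Max and Mxd network is a small family of basic helix-loop-helix leucine zipper transcription factors, and its RNA was followed here in mouse bone marrow cells that carried mutant SETBP1, mutant NRAS, both or neither. Its 10 members were taken by gene symbol from a table of 19910 genes: Myc, Mycn and Mycl, their partner Max, the antagonists Mxd1, Mxd3, Mxd4, Mxi1 and Mnt, and the Max-like protein Mlx. All 10 had a row in the table, and 9 passed a filter on low counts and were tested; Mycl did not.

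RNA of 12 libraries was sequenced, 3 for each of 4 retroviral transductions. The empty group received a pair of empty vectors, the SETBP1 group a vector with SETBP1 D868N and an empty one, the NRAS group an empty vector and one with NRAS G12D, and the SETBP1+NRAS group both mutants. All groups shared C57BL/6J marrow from female donors of 6 to 10 weeks, 2 retroviral vectors, total RNA extraction and a library chemistry for very small amounts of RNA, and the labels call all 12 samples leukemia cells. The labels do not say whether the 3 replicates of a group came from separate mice, transductions or cultures, so p-values measure the spread between these libraries, which may be technical. They also do not give the promoter of the vectors, the species of the introduced sequences, the share of cells that was transduced or whether cells were sorted.

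Each Myc protein binds DNA as a dimer with Max at the E-box CACGTG and activates genes of ribosome production, nucleotide synthesis and the cell cycle. The Mxd proteins, Mxi1 and Mnt compete for Max, occupy the same sites and bring Sin3 and histone deacetylases that lower transcription. In blood formation Myc is high in dividing progenitors, Mxd1 is known to rise as granulocytes mature, and the partners of Mlx include glucose-sensing factors.

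Total counts ran from 7085894 to 8864919 per library. As a check of the labels, normalised Nras levels were 82.0 to 93.0 CPM, counts scaled to a common library size, in the 6 libraries without NRAS and 1423 to 1712 in the 6 with it. Setbp1 had 0 reads in each of the 6 libraries without SETBP1. With SETBP1 it had 7, 7 and 5 reads, and with both mutants 13, 17 and 11. SETBP1 replicate 3 stood apart from the other libraries of its group: 8.6% of genes lay at least 2-fold from their mean there, against 0.0442% to 1.23% in the other 11 libraries. The 5 general blood cell markers, Ptprc, Spi1, Coro1a, Laptm5 and Runx1, were detected in every group. Their summed level was 2610 to 3190 CPM. The 5 early granule genes Mpo, Elane, Prtn3, Ctsg and Ms4a3 summed to 24584 to 27211 CPM with empty vectors, 18208 to 19994 with SETBP1, 9863 to 11478 with NRAS and 5750 to 6304 with both. The 6 mast cell and basophil markers summed to 1401 to 1424, 759 to 989, 542 to 929 and 345 to 467 CPM in the same order. Both sums were thus highest with empty vectors and lowest with both mutants. The 8 monocyte and macrophage markers summed to 3860 to 4174, 4190 to 5396, 3680 to 4050 and 3227 to 3744 CPM in that order of groups. Their sum was thus highest with SETBP1, but Ly6c2 alone held 1998 to 3921 CPM, and single markers moved both ways. Against empty vectors 3 of the 8 were higher and 0 lower with SETBP1 (adjusted p under 0.05, edgeR). With NRAS 2 were higher and 2 lower, and with both mutants 4 were higher and 2 lower. Of all genes, 8.31%, 17% and 20.8% were higher and 6.55%, 15.5% and 19.8% lower in these comparisons. The part of all these sums in the results below was not tested. The 5 B-cell markers summed to at most 21.6 CPM and the 6 T-cell markers to at most 10.7. In such bulk samples fewer cells of a type and less RNA per cell cannot be told apart.

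Promoter sequence was examined because Max dimers bind the E-box and several of these genes belong to the network that reads it. RefSeq promoter windows ran from 250 bases before to 50 bases after the start. They were found for 9 of the 10 members, all but Myc, with several for Mxi1 and 11 in all on build GRCm38.p6. Both strands were searched, and CACGTG, which reads the same on both, was present in 4 windows of 4 members, against 7.15% of 32851 windows of the same length. The AP-1 letters TGACTCA, which share no overlap with the E-box, were in 0 of the 11 windows and in 5.2% of all windows. The 4 windows below show the E-box in capitals with 20 bases on each side, 5′ to 3′ on the strand of the gene.

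Max (chr12:76962226-76962271, minus strand, E-box from position -3): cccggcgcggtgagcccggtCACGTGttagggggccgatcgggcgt
Mxd4 (chr5:34187904-34187949, minus strand, E-box from position -219): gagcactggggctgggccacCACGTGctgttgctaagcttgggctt
Mnt (chr11:74830781-74830826, plus strand, E-box from position -123): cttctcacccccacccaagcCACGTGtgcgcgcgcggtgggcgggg
Mlx (chr11:101087230-101087275, plus strand, E-box from position -40): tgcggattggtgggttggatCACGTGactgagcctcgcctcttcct

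Positions were counted from the annotated start. In Max the 6 letters cross the start itself, in Mlx they lie near it, and in Mxd4 they lie near the far end of the window. Of these 4 genes, Mxd4 and Mlx passed the threshold in at least 1 comparison below, and Max and Mnt in none. The call of Mlx was lost in 10 of 20 alternative fits. Of the tested members whose windows held no E-box, Mycn, Mxd1 and Mxi1 also passed in at least 1, and Mxd3 in none. Single pairwise comparisons called 1.91% to 42.4% of all genes, and the share called in at least 1 was not computed. Whether the E-box goes with a call was not tested. A match of letters is a description and not a bound site, since binding was not measured here.

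Levels of different members were compared per kilobase of exon, as normalised CPM divided by the length of all annotated exons together. With empty vectors Myc stood highest at 210 ± 14.8 CPM per kb (SD, n = 3), ahead of Mlx at 69.8 ± 2.06 and Max at 39.6 ± 6.02. Mxd3 followed at 22.0 ± 0.759, then Mxi1 at 16.9 ± 1.16 and Mxd1 at 15.6 ± 2.24, which overlapped each other within their SD. Mycn at 3.12 ± 0.310, Mxd4 at 2.40 ± 0.299 and Mnt at 1.58 ± 0.186 were low, and Mycl was lowest at 0.0888 ± 0.0471. Exon length here is that of the annotation and not of the isoforms these cells made, so close ranks such as that of Mxi1 and Mxd1 carry little weight.

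**Figure D1:**
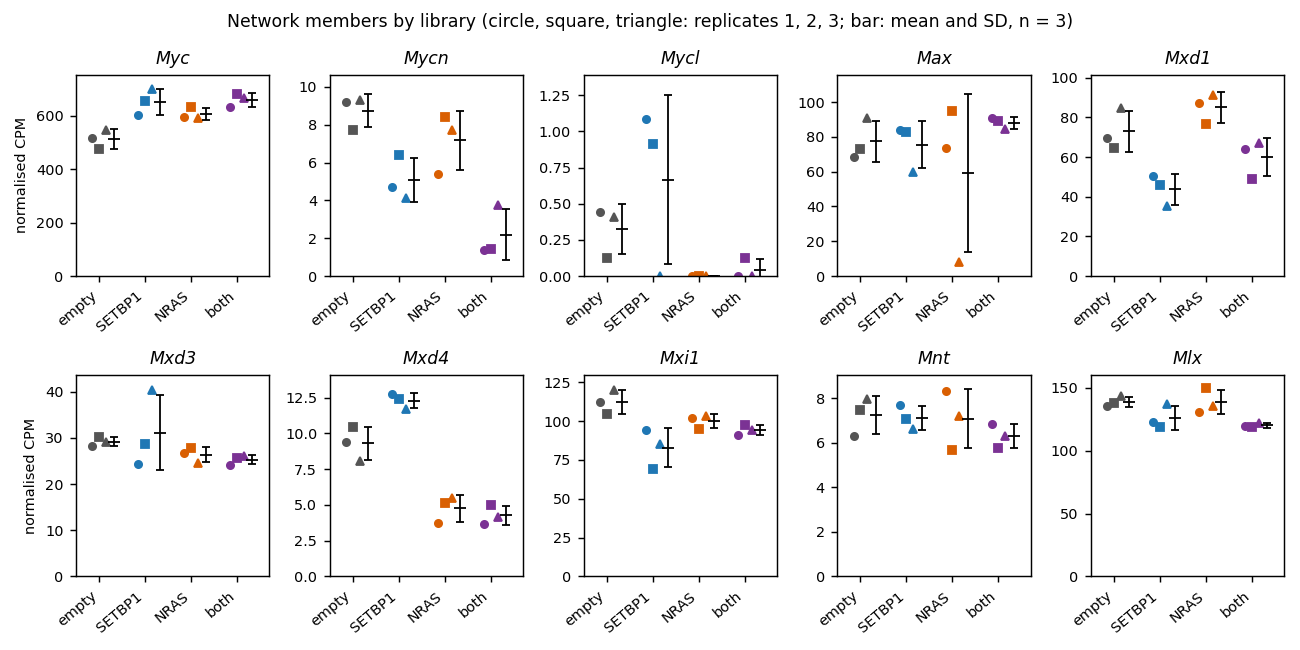
Normalised CPM of the 10 members (y axes, linear, each with its own range) in the 4 groups (x axes), with both standing for SETBP1+NRAS. Circles, squares and triangles are replicates 1, 2 and 3 and black bars are the mean and SD of 3 libraries; Myc is lowest with empty vectors, Mycn lowest with both mutants, Mxd4 low in the 6 libraries with NRAS, and Max has 1 NRAS library at 7.99 CPM.

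Against empty vectors, SETBP1 alone changed 3 of the 9 tested members, where 14.9% of all 10993 genes tested passed the threshold, 8.31% higher and 6.55% lower (adjusted p under 0.05, edgeR quasi-likelihood test with Benjamini-Hochberg adjustment). Myc was higher, and the antagonists Mxd1 and Mxi1 were lower. NRAS alone changed 2 members, Myc upward and Mxd4 downward, against 32.5% of all genes (17% higher and 15.5% lower). With both mutants 4 members differed from empty vectors, Myc upward and Mycn, Mxd4 and Mlx downward, against 40.6% of all genes (20.8% higher and 19.8% lower). Between both mutants and NRAS alone only Mycn differed, lower with both, against 1.91% of all genes, of which 1.38% were lower and 0.528% higher. Between both mutants and SETBP1 alone 3 members differed, Mxd1 upward and Mycn and Mxd4 downward, against 42.4% (20.9% higher and 21.5% lower). The comparisons against empty vectors share the same 3 control libraries, and their counts are therefore not independent of each other.

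**Figure D2:**
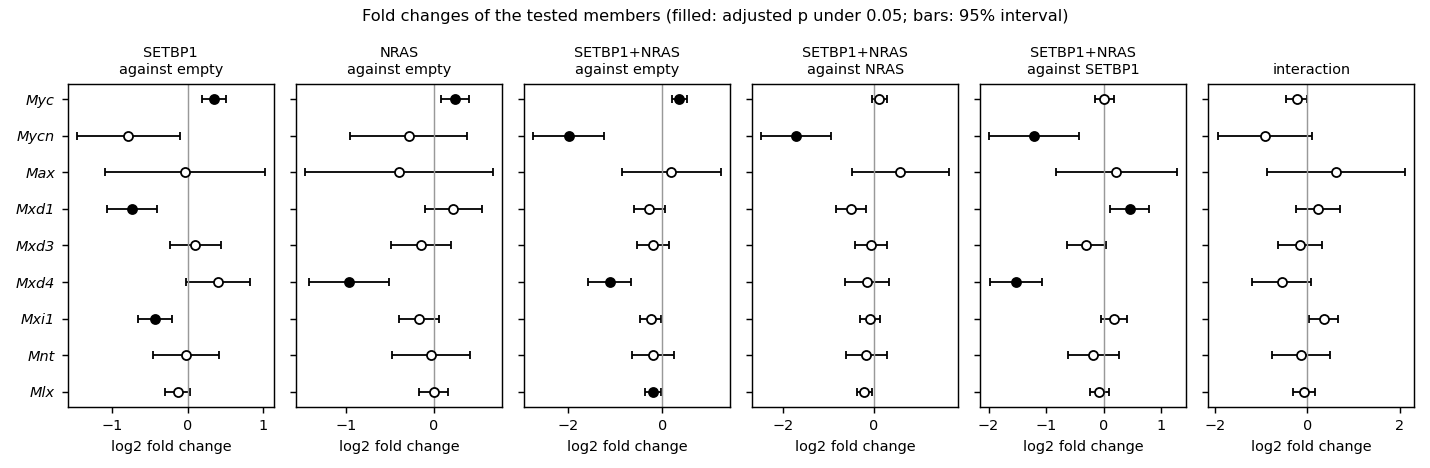
Log2 fold changes (x axes, each with its own range) of the 9 tested members in 5 pairwise comparisons and the interaction; points are estimates, bars 95% intervals, and filled points passed the threshold. Myc lies right of 0 in all 3 comparisons with empty vectors, Mxd4 lies at -0.96 and -1.12 in the comparisons of NRAS and of SETBP1+NRAS with empty vectors, and the Max intervals are wide in all 6 panels.

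Myc (chr15:61985391-61990374, plus strand) encodes the main growth-promoting member. Its normalised level was 518, 475 and 548 CPM in the 3 empty libraries, 604, 654 and 701 with SETBP1, 595, 632 and 593 with NRAS, and 633, 681 and 666 with SETBP1+NRAS. All 9 libraries with a mutant lay above all 3 empty libraries, and the NRAS libraries lay just below those with both mutants, with the SETBP1 libraries across both ranges. The log2 fold change against empty was 0.35 (SE 0.07, adjusted p = 0.0109) with SETBP1, 0.24 (SE 0.07, adjusted p = 0.0238) with NRAS and 0.36 (SE 0.07, adjusted p = 0.00153) with both, by edgeR quasi-likelihood with Benjamini-Hochberg adjustment. These are rises of 1.27-fold, 1.18-fold and 1.29-fold.

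The level of Myc with both mutants was close to that with SETBP1 alone, with a log2 difference of 0.02 and a 95% interval from -0.15 to 0.18. It differed from NRAS alone by 0.12, with an interval from -0.04 to 0.28 (adjusted p = 0.633, edgeR). The interaction subtracts the effect of SETBP1 on empty vectors from its effect beside NRAS; it was -0.23 on the log2 scale, and its interval of -0.45 to 0.00 reached 0 (adjusted p = 0.390, edgeR). The NRAS call was lost when libraries were scaled by library size only, at 0.15 and adjusted p = 0.111, and without empty replicate 1, empty replicate 2 or NRAS replicate 2, at adjusted p of 0.0654, 0.114 and 0.0920. The SETBP1 call was lost when only the 6 libraries compared were fitted (adjusted p = 0.0942).

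Mycn (chr12:12936093-12941914, minus strand) encodes the paralog that is known from neural tissue and also works in blood stem cells. Its read counts were 83, 61 and 69 with empty vectors, 39, 49 and 35 with SETBP1, 41, 62 and 61 with NRAS, and 10, 11 and 28 with SETBP1+NRAS. All 3 libraries with both mutants lay below the other 9, and the SETBP1 libraries lay below the empty ones. On the normalised scale the group means were 8.75 ± 0.869, 5.08 ± 1.18, 7.18 ± 1.56 and 2.19 ± 1.36 CPM (SD, n = 3 each).

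Mycn fell by 1.99 on the log2 scale with both mutants against empty vectors (SE 0.35, adjusted p = 4.73e-04, edgeR). It fell by 1.71 against NRAS alone (SE 0.36, adjusted p = 0.0254) and fell by 1.20 against SETBP1 alone (SE 0.36, adjusted p = 0.0165). With SETBP1 alone the log2 difference from empty was -0.79 (SE 0.32, adjusted p = 0.103), and with NRAS alone it was -0.28 (adjusted p = 0.519). The interaction of -0.92 had an interval from -1.95 to 0.11 and an adjusted p of 0.437, so a larger fall with both mutants than the sum of the single ones was not shown.

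The comparison with NRAS alone rests on few reads and lost its call without NRAS replicate 2 or 3 and without replicate 1 or 2 of the libraries with both mutants, at adjusted p of 0.117, 0.0968, 0.140 and 0.128. The comparison with SETBP1 alone lost its call without SETBP1 replicate 2 and without replicate 1 or 2 of the libraries with both mutants, at 0.0561, 0.0730 and 0.0763, and with only the groups compared, at 0.0798. Among the reads of Myc, Mycn and Mycl together, Mycn made up 1.67% ± 0.0692 with empty vectors, 0.775% ± 0.190 with SETBP1, 1.17% ± 0.229 with NRAS and 0.330% ± 0.202 with both. Myc had more reads than Mycn in every library. The 250 bases before the annotated start of Mycn, the member with the largest fall, are shown here without a capital because they hold no CACGTG.

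Mycn (chr12:12941837-12942086, minus strand): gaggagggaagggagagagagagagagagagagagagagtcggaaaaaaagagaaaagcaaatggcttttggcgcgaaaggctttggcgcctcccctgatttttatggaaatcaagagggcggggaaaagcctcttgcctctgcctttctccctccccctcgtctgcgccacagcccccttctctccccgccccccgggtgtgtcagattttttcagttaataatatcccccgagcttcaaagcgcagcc

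Mycl (chr4:122995652-123002485, plus strand), the third Myc paralog, was near the limit of detection. It had 4, 1 and 3 reads in the empty libraries, 9, 7 and 0 with SETBP1, 0, 0 and 0 with NRAS, and 0, 1 and 0 with both. Over the summed reads of a group this was 0.344 CPM, here unscaled, with empty vectors (exact Clopper-Pearson 95% interval 0.148 to 0.678) and 0.663 with SETBP1 (0.379 to 1.08). With NRAS there were 0 of 23304950 reads, for which the same interval reaches 0.158 CPM and 3 reads of that total would be 0.129 CPM, and these limits cover counting error only. The SETBP1 reads came from replicates 1 and 2, and the gene was not tested.

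Max (chr12:76937269-76962201, minus strand) encodes a common partner of the Myc and Mxd proteins. Its read counts were 619, 576 and 673 with empty vectors, 695, 634 and 505 with SETBP1, 559, 703 and 63 with NRAS, and 651, 696 and 627 with both. Of these, 11 libraries lay between 505 and 703 reads and NRAS replicate 3 lay far below. Its normalised level there was 0.0945 of the mean of the other NRAS libraries, the lowest such ratio of 8896 genes compared in that library. Only 0.337% of those genes lay at least 2-fold from the mean of the other NRAS libraries.

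This library decided the Max estimate for NRAS. Against empty vectors the log2 difference was -0.40 (SE 0.50, interval -1.46 to 0.67, adjusted p = 0.582, edgeR), and 0.12 without NRAS replicate 3 (adjusted p = 0.637). Max also did not pass the threshold with SETBP1, at -0.04, or with both mutants, at 0.19, and its intervals in those comparisons reached past 1 in size. The fit estimates the spread of a gene over all 12 libraries, so these intervals also include NRAS replicate 3. Within groups the SD of Max was 11.8 CPM with empty vectors, 13.6 with SETBP1 and 3.44 with both, against 45.4 with NRAS. Other genes of the region did not share the low value: Fntb, beside Max on the chromosome, had 89, 86 and 88 reads in the NRAS libraries, and Fut8 had 671, 854 and 1071.

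The 3 genes whose profile over the 12 libraries was most like that of Max were low in the same library. Prpf19, a splicing factor and ubiquitin ligase, had 1025, 1176 and 283 reads in the NRAS libraries. Npm3, a nucleolar chaperone, had 134, 171 and 30, and Emd, which encodes the nuclear envelope protein emerin, had 321, 356 and 66. Pearson's r with Max was 0.985, 0.958 and 0.953 over 12 libraries and fell to 0.607, 0.587 and 0.759 over the 11 without NRAS replicate 3, so the likeness rests largely on that library. The low values were noticed after the counts had been seen, and their cause was not tested.

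**Figure D3:**
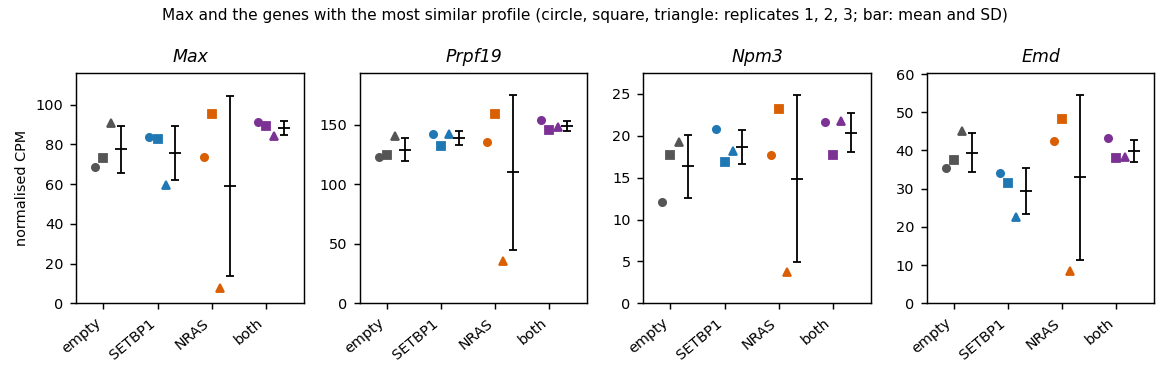
Normalised CPM (y axes, linear, each with its own range) of Max and of the 3 genes most like it, by group (x axes); symbols are replicates 1, 2 and 3 and bars the mean and SD of 3 libraries. In each panel NRAS replicate 3, the orange triangle, lies below all other libraries, at 7.99 CPM for Max and 35.9 for Prpf19.

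Mxd1 (chr6:86647042-86669161, minus strand) encodes the antagonist best known from maturing myeloid cells. Its normalised level was 69.4, 64.8 and 84.7 CPM with empty vectors, 50.2, 46.0 and 35.1 with SETBP1, 87.5, 76.4 and 91.5 with NRAS, and 64.1, 49.0 and 66.9 with both. The SETBP1 libraries lay below all empty and all NRAS libraries, and the libraries with both mutants lay below all NRAS libraries. Mxd1 fell by 0.74 on the log2 scale with SETBP1 (SE 0.16, adjusted p = 0.00997, edgeR) and did not pass with NRAS, at 0.22 (adjusted p = 0.284).

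In the NRAS background the SETBP1 difference was -0.51 (SE 0.15, adjusted p = 0.139), and it passed the threshold at adjusted p = 0.00902 when SETBP1 replicate 3, which is in neither group, was left out. Against SETBP1 alone both mutants gave a level higher by 0.45 (SE 0.16, adjusted p = 0.0314), a call that was lost without SETBP1 replicate 3 (0.32, adjusted p = 0.0626). It was also lost without SETBP1 replicate 2 and without replicate 1 or 3 of the libraries with both mutants, at adjusted p of 0.0528, 0.0996 and 0.119, with library size only, at 0.0978, and with only the groups compared, at 0.0934. The fall with SETBP1 was lost without empty replicate 3 (adjusted p = 0.0613) and with only the groups compared (0.0820). The interaction was 0.23 with an interval from -0.24 to 0.70 (adjusted p = 0.658, edgeR).

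Late neutrophil genes also differed between these groups. The 9 markers with a row (Ltf, Camp, Ngp, Lcn2, Mmp8, Retnlg, Cxcr2, S100a8 and S100a9) were detected in every group. Together they summed to 11122 to 12541 CPM with empty vectors, 5121 to 7287 with SETBP1, 5697 to 7389 with NRAS and 1918 to 2403 with both. With NRAS 5 of the 9 fell and 1 rose, where 15.5% of all genes were lower and 17% higher. Ngp, Ltf, Camp, Lcn2 and Mmp8 had log2 fold changes of -1.95, -2.03, -2.27, -0.68 and -1.54, Cxcr2 rose by 1.08 (adjusted p = 0.00187, edgeR), and S100a8, S100a9 and Retnlg did not pass, at -0.13, -0.26 and 0.02. With SETBP1 7 of the 9 fell, where 6.55% of all genes were lower, among them S100a8, S100a9 and Retnlg at -1.17, -1.02 and -2.40 (adjusted p of 0.00134, 9.33e-04 and 0.00262), and Mmp8 and Cxcr2 did not pass. The part of cell composition in the Mxd1 result was not tested. The 250 bases before the start of Mxd1 are shown for comparison with those of Mycn and Mxd4 and hold no CACGTG.

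Mxd1 (chr6:86669160-86669409, minus strand): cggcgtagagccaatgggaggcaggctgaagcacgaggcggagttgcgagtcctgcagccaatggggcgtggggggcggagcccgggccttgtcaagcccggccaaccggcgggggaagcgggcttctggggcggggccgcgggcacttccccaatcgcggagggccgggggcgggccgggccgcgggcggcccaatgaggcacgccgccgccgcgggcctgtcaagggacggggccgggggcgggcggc

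The ratio of Myc to Mxd1 RNA followed these shifts. Myc had 7.09 ± 0.546 reads per Mxd1 read with empty vectors and 7.18 ± 0.951 with NRAS, against 15.4 ± 4.08 with SETBP1 and 11.2 ± 2.29 with both (SD, n = 3 each). The empty and NRAS libraries ranged from 6.46 to 8.27, and the 6 libraries with SETBP1 from 9.88 to 19.9. The ratio was formed after both genes had been seen to move and is given as a description with no test. Mxd1 made up 32.5% ± 2.23 of the reads of Mxd1, Mxd3, Mxd4 and Mxi1 with empty vectors and 25.8% ± 4.77 with SETBP1. Its share was 39.3% ± 1.71 with NRAS and 32.5% ± 4.21 with both, so the ratio does not cover all antagonists. Together these antagonists summed to 224 ± 16.4, 170 ± 12.8, 216 ± 10.6 and 184 ± 7.29 CPM in the order empty, SETBP1, NRAS and both. RNA ratios do not measure the dimers in the cell.

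**Figure D4:**
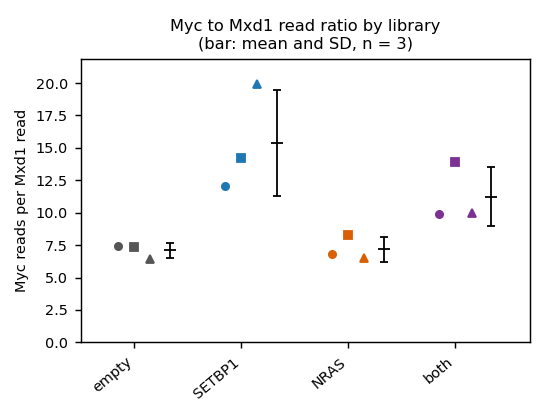
Myc reads per Mxd1 read (y axis, linear from 0) in the 12 libraries by group (x axis); symbols are replicates 1, 2 and 3 and bars the mean and SD of 3 libraries. The 6 libraries with SETBP1 lie at 9.88 or above and the 6 without at 8.27 or below, and SETBP1 replicate 3 is highest at 19.9.

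Mxi1 (chr19:53310518-53375810, plus strand) encodes a second antagonist of Myc. It had 113, 104 and 120 CPM with empty vectors, 94.4, 69.3 and 85.1 with SETBP1, 102, 94.98 and 103 with NRAS, and 91.1, 97.7 and 94.6 with both. All 3 empty libraries lay above all 9 others, and the SETBP1 libraries spread most. Mxi1 fell by 0.44 with SETBP1 (SE 0.10, adjusted p = 0.0176, edgeR), and this call was lost without empty replicate 1, without empty replicate 3 and with only the groups compared, at adjusted p of 0.0675, 0.0896 and 0.118. With NRAS the difference was -0.17 (adjusted p = 0.247) and with both -0.25 (adjusted p = 0.0718). The latter passed in 6 of 20 alternatives, namely with library size only (-0.37, adjusted p = 0.0125), with only the groups compared (0.00395), without SETBP1 replicate 1, 2 or 3 (0.0363, 0.0245 and 0.0306) and without SETBP1 replicate 3 and NRAS replicate 3 together (0.0244). The interaction of 0.35 had an interval from 0.04 to 0.67 and an adjusted p of 0.354.

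Mxd4 (chr5:34173883-34187720, minus strand), an antagonist expressed in differentiating cells, separated the libraries with NRAS from those without. Its read counts were 85, 82 and 60 with empty vectors, 106, 95 and 99 with SETBP1, 28, 38 and 43 with NRAS, and 26, 39 and 31 with both. All 6 libraries with NRAS lay below all 6 without, with no overlap. Mxd4 fell by 0.96 on the log2 scale with NRAS (SE 0.21, adjusted p = 0.00308) and by 1.12 with both mutants against empty vectors (SE 0.21, adjusted p = 8.72e-04, edgeR). Against SETBP1 alone it fell by 1.52 with both (SE 0.21, adjusted p = 7.26e-05). These 3 calls held in all alternatives run.

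With SETBP1 alone Mxd4 differed from empty by 0.40, with an interval from -0.02 to 0.82 (adjusted p = 0.169, edgeR), although the 3 SETBP1 libraries lay above the 3 empty ones. Between both mutants and NRAS alone it differed by -0.16, with an interval from -0.64 to 0.33. The 3 genes with the most similar profile over 12 libraries were Sord at r = 0.981, Sirt3 at 0.973 and Fam117a at 0.970. All 3 values were at least 0.969 when either SETBP1 replicate 3 or NRAS replicate 3 was left out. The 250 bases before the start of Mxd4, with the E-box in capitals, follow.

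Mxd4 (chr5:34187711-34187960, minus strand): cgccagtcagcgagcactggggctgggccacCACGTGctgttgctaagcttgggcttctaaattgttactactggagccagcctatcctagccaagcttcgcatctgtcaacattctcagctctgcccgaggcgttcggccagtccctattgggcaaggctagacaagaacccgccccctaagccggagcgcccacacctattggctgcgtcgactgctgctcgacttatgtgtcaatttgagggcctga

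Mxd3 (chr13:55325168-55329823, minus strand), an antagonist linked to the S phase of dividing cells, passed the threshold in no comparison. Its group means were 29.2 ± 1.01, 31.2 ± 8.22, 26.4 ± 1.66 and 25.3 ± 0.987 CPM in the order empty, SETBP1, NRAS and both. SETBP1 replicate 3 alone stood at 40.3 CPM and gave the SETBP1 group its spread: the log2 difference from empty was 0.10 with it and -0.14 without it. The genes most like Mxd3 depended on the same library: r with Hps6, Tmem9b and Slc25a11 was 0.961, 0.953 and 0.952 over 12 libraries and 0.858, 0.872 and 0.816 without it.

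Mnt (chr11:74830920-74845725, plus strand) encodes a broadly made antagonist that is thought to set a basal brake on Myc targets. Its counts ran from 42 to 64 reads in the 12 libraries, and the group means of 7.25 ± 0.854, 7.13 ± 0.545, 7.08 ± 1.33 and 6.31 ± 0.547 CPM overlapped within their SD. The log2 differences from empty were -0.02, -0.03 and -0.20. The interval with both mutants ran from -0.64 to 0.25, so a fall within that interval was not excluded.

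Mlx (chr11:101087277-101092207, plus strand) encodes a Max-like protein that pairs with the glucose-sensing factors Mlxip and Mlxipl. Its levels were 135, 138 and 143 CPM with empty vectors, 123, 119 and 137 with SETBP1, 131, 150 and 135 with NRAS, and 120, 119 and 122 with both. The libraries with both mutants lay below all empty and all NRAS libraries but not below all SETBP1 libraries. The fall of 0.21 against empty was small (SE 0.08, adjusted p = 0.0467, edgeR). It was lost with the replicate number as a block (adjusted p = 0.0622), with no low-count filter (0.0907) and without any 1 of 8 libraries, namely any empty or SETBP1+NRAS library, NRAS replicate 1 or NRAS replicate 3, at 0.0555 to 0.124.

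Among the partners of Mlx and the Max-binding protein Mga, Mlxipl rose with NRAS. It had 4, 4 and 3 reads with empty vectors, 4, 2 and 3 with SETBP1, 9, 12 and 13 with NRAS, and 19, 26 and 12 with both. Its log2 fold change was 1.68 with NRAS (SE 0.47, adjusted p = 0.0144) and 2.45 with both (SE 0.45, adjusted p = 6.34e-04, edgeR), from few reads. All libraries without NRAS lay below the filter's minimum count of 10, so Mlxipl passed the low-count filter only through libraries with NRAS. The NRAS call was lost without empty replicate 1, empty replicate 3 or NRAS replicate 3 (0.0533, 0.0529 and 0.0527). Mga, at 37.3 ± 2.13 CPM with empty vectors, and Mlxip, at 62.3 ± 6.41, passed in none of the comparisons. Txnip, a known Mlx target that limits glucose uptake, rose by 0.64 with NRAS (SE 0.08, adjusted p = 3.89e-05) and by 0.83 with both (adjusted p = 2.28e-06, edgeR), from 99.7 ± 4.69 CPM to 155 ± 4.29 and 177 ± 10.6. Arrdc4, another Mlx target, differed by -0.41 and -0.35 and did not pass (adjusted p = 0.245 and 0.302).

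Genes known as Myc-activated, a list of 36 written from general knowledge with 35 tested, moved mostly upward with each mutant. With SETBP1, 21 were higher and 2 lower, with a median log2 fold change of 0.27, where 8.31% of all genes were higher and 6.55% lower. With NRAS 27 were higher and 0 lower, with a median of 0.44, where 17% of all genes were higher. With both mutants 30 were higher and 0 lower, with a median of 0.53, where 20.8% of all genes were higher. The median of all genes tested lay within 0.02 of 0 in each of these comparisons. The 23 calls with SETBP1 became 13 without empty replicate 1 or without empty replicate 3, and 1, that of Cdk4, with only the groups compared.

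**Figure D5:**
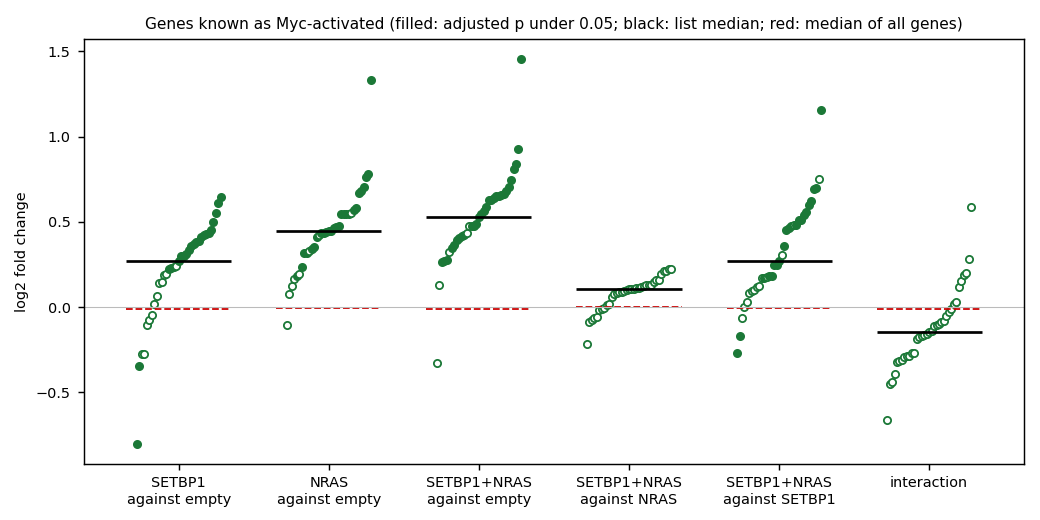
Log2 fold changes (y axis) of the 35 tested Myc-activated genes in 5 pairwise comparisons and the interaction (x axis), sorted within each; filled points passed the threshold, black lines are list medians and red dashed lines the medians of all genes. The list median is 0.27, 0.44 and 0.53 against empty vectors and 0.10 between SETBP1+NRAS and NRAS, where no point is filled.

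Odc1, the rate-limiting enzyme of polyamine synthesis and a classical Myc target, had 264, 257 and 247 CPM with empty vectors and 322, 321 and 304 with SETBP1. It had 604, 606 and 722 with NRAS and 716, 684 and 709 with both, so the NRAS and the other libraries did not overlap. Its log2 fold change against empty was 0.30 (SE 0.08, adjusted p = 0.0205) with SETBP1, 1.33 (SE 0.08, adjusted p = 2.55e-08) with NRAS and 1.46 (SE 0.08, adjusted p = 6.49e-09) with both, by edgeR. The nucleolar genes Ncl and Npm1 rose by 0.78 and 0.70 with NRAS and by 0.84 and 0.92 with both (adjusted p of 1.15e-06 and 6.23e-07 with both). The SETBP1 call of Odc1 was lost with library size only and without empty replicate 1 or 3 (adjusted p of 0.0514, 0.0564 and 0.0920). With SETBP1 alone Npm1 rose by 0.37 (adjusted p = 0.00985, and 0.0535 without empty replicate 1) and Ncl differed by 0.15 (adjusted p = 0.184).

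Some targets rose with SETBP1 but did not pass with NRAS alone. Apex1, a DNA repair endonuclease, stood at 128 ± 8.24 CPM with empty vectors and 188 ± 18.8 with SETBP1, a rise of 0.55 on the log2 scale (adjusted p = 0.00258, edgeR), and at 144 ± 6.21 with NRAS (0.17, adjusted p = 0.157). Cdk4, the kinase of the G1 phase, rose by 0.44 with SETBP1 (adjusted p = 0.00205) and by 0.27 with both, and differed by 0.12 with NRAS (adjusted p = 0.170). Apex1 was lower with both mutants than with SETBP1 alone, by -0.27 (adjusted p = 0.0202), a call that was lost without replicate 1 or 2 of the libraries with both mutants (0.0597 and 0.0860). The growth-linked gene Pa2g4 and the chaperonin partner gene Hspe1 rose by 0.65 and 0.61 with SETBP1 (adjusted p of 0.00873 and 0.00384), and the value of Pa2g4 was 0.42 without SETBP1 replicate 3. They also rose with NRAS, by 0.76 and 0.55 (adjusted p of 5.76e-04 and 0.00119). The transferrin receptor gene Tfrc and the cell cycle phosphatase gene Cdc25a fell with SETBP1 by 0.81 and 0.35 (adjusted p of 0.0447 and 0.0397). These calls were kept in 6 and 7 of 20 alternatives: that of Tfrc was lost without any 1 library other than SETBP1 replicate 1 or 3, and that of Cdc25a without any 1 other than SETBP1 replicate 1 or SETBP1+NRAS replicate 2. The SETBP1 libraries had 213, 155 and 74.3 CPM of Tfrc, and without replicate 3 the log2 difference was -0.48 (adjusted p = 0.00662). The interaction did not pass for any of these genes, so a difference between the SETBP1 effect with and without NRAS was not shown. SETBP1 alone was not compared directly with NRAS alone. A pass with SETBP1 beside a non-pass with NRAS therefore does not show a difference between them.

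Between both mutants and NRAS alone, 0 of the 35 Myc-activated genes passed by edgeR or limma-voom and 1 passed by DESeq2, with 6 at an unadjusted p under 0.05. The list median there was 0.10 and 27 of 35 fold changes were above 0. Leaving out SETBP1 replicate 3, which is in neither group, gave 4 calls, all higher with both mutants. Against SETBP1 alone 20 were higher and 2 lower with both mutants, where 20.9% of all genes were higher and 21.5% lower, with a median of 0.27. For the interaction, where 0.0455% of all genes passed, 0 of 35 passed by edgeR, DESeq2 or limma-voom and 12 had an unadjusted p under 0.05, with a median of -0.15. Of the 9 tested members 0 passed by the same tools and 1, Mxi1, had an unadjusted p under 0.05.

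Genes known to be repressed by Myc, 8 in all, did not move in a single direction with NRAS. The cell cycle inhibitor genes Cdkn2b and Cdkn1a and the stress gene Ndrg1 rose by 4.41, 0.78 and 1.28 (adjusted p of 3.83e-06, 0.00309 and 1.43e-06, edgeR), while Ndrg2 and Gadd45b fell by 1.44 and 0.82 (adjusted p of 1.45e-06 and 0.00118). Cdkn2b went from 1, 5 and 2 reads with empty vectors and 6, 5 and 12 with SETBP1 to 54, 52 and 62 with NRAS and 72, 73 and 60 with both. Its counts without NRAS lay near or below the filter's minimum of 10. Cdkn2b thus passed the low-count filter through the libraries with NRAS, and its fold changes start from few reads. With both mutants against empty vectors 3 of the 8 were higher and 2 lower, where 20.8% of all genes were higher and 19.8% lower, at 4.73 for Cdkn2b, 1.03 for Cdkn1a, 0.92 for Ndrg1, -2.39 for Ndrg2 and -0.81 for Gadd45b. Ndrg2 fell from 69.9 ± 5.66 CPM with empty vectors to 25.7 ± 2.72 with NRAS and 13.4 ± 1.66 with both, and it was the 1 gene of the list that also differed between both mutants and NRAS alone, by -0.95 (SE 0.14, adjusted p = 0.00268). With SETBP1 alone the lowest adjusted p of the 8 was 0.0804, for Cdkn2b.

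Of 12 genes for proteins that Myc recruits or works with, 4 were higher with NRAS, 4 with both mutants and 2 with SETBP1, where 17%, 20.8% and 8.31% of all genes were higher, and 0 were lower in these comparisons. The helicase genes Ruvbl1 and Ruvbl2 rose by 0.57 and 0.31 with NRAS, the histone methylation scaffold gene Wdr5 by 0.37 and the acetyltransferase gene Kat2a by 0.31 (adjusted p of 3.09e-04, 0.0144, 0.0388 and 0.0418, edgeR). The calls of Wdr5 and Kat2a were kept in 10 of 20 alternatives each and lost without any 1 library other than a SETBP1 one, and that of Ruvbl2 was lost without empty replicate 1 or NRAS replicate 1 (0.0696 and 0.0620). Ruvbl2 and Kat2a were the 2 that rose with SETBP1, by 0.45 and 0.40 (adjusted p of 0.00760 and 0.0260), but for Kat2a the call was lost without any 1 empty library and the value was 0.25 without SETBP1 replicate 3. Of 9 genes for the corepressors of the Mxd proteins, Rbbp7 and Hdac2 rose by 0.26 and 0.27 with NRAS and Ncor1 fell by 0.43 (adjusted p of 0.0110, 0.0368 and 0.0118), where 17% of all genes were higher and 15.5% lower. The call of Rbbp7 was lost without NRAS replicate 3 (0.0529) and that of Hdac2 without any 1 empty library, NRAS replicate 2 or 3, or SETBP1+NRAS replicate 1 (0.0526 to 0.173). With library size only both were lost, at 0.16 and 0.17. Sin3a and Sin3b, the scaffolds that Mxd proteins bind directly, differed by 0.02 and 0.14 and did not pass (adjusted p of 0.912 and 0.303).

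Myc protein is short-lived, and 13 genes of its turnover were tested. The mitotic kinase gene Plk1 rose by 0.27 with NRAS and 0.30 with both (adjusted p of 0.0154 and 0.00577, edgeR), and both calls were lost with library size only, at 0.17 and 0.18; that with NRAS was also lost without empty replicate 3 or NRAS replicate 1. Fbxw7, the ubiquitin ligase subunit that marks Myc for degradation, differed from empty by -0.10, 0.37 and 0.37 with SETBP1, NRAS and both and did not pass (adjusted p of 0.695, 0.0889 and 0.0788). With SETBP1 the ligase gene Stub1 rose by 0.41 and the phosphatase subunit gene Ppp2r5a fell by 0.27 (adjusted p of 0.0484 and 0.0249). The Stub1 libraries stood at 217, 247 and 341 CPM with SETBP1 and 192 to 208 with empty vectors, the value was 0.20 without SETBP1 replicate 3 (adjusted p = 0.0879), and its call was kept in 6 of 20 alternatives, being lost without any 1 library other than SETBP1 replicate 1 or 2. That of Ppp2r5a was lost without empty replicate 1 or 3 or SETBP1 replicate 2. RNA does not show protein stability, which was not measured.

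Proliferation genes were read beside Myc because dividing cells hold more of its RNA. Of 10 such genes 0 were higher and 2 lower with SETBP1, 4 were higher with NRAS and 5 with both, where 6.55% of all genes were lower with SETBP1 and 17% and 20.8% higher with NRAS and both, with medians of -0.03, 0.19 and 0.20. The 2 that fell with SETBP1 were the cyclin gene Ccna2 and the topoisomerase gene Top2a, at -0.27 and -0.53 (adjusted p of 0.0190 and 0.0303, edgeR). Both calls were lost without any 1 empty library and without SETBP1 replicate 2, and the value of Top2a was -0.33 without SETBP1 replicate 3. Their summed level was 2918 to 2944 CPM with empty vectors, 2646 to 2752 with SETBP1, 3320 to 3388 with NRAS and 3231 to 3263 with both. The rise of Myc with SETBP1 thus stood beside lower proliferation sums and that with NRAS beside higher ones, and the part of cell division in either was not tested.

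The genes most like Myc over the 12 libraries were Rbmx at r = 0.970, Gnl3 at 0.949 and Polr2e at 0.935. All 3 kept r of at least 0.926 when SETBP1 replicate 3 or NRAS replicate 3 was left out. For Mycn they were Csnk1g2 at 0.947, Cd37 at 0.905 and Vamp5 at 0.890, and for Mxd1 they were Dock5 at 0.969, Ralgapb at 0.941 and Srgn at 0.937. For Mxi1 they were Zc3h14 at 0.954, Ppp2r5a at 0.919 and Sp3 at 0.917, for Mlx Grk6, F11r and Xrcc5 at 0.869 to 0.870, and for Mnt no gene passed 0.771. Each is the highest of about 9072 values over libraries that share group and depth, and is given as a description.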

How the data were processed

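RNA was sequenced from 12 mouse bone marrow libraries, 3 in each of 4 groups. A single table of raw read counts was deposited by the authors, with 1 row for each of 19910 gene symbols. Per the submitters' processing notes STAR and DESeq2 were used on build mm10; versions, the counting tool, annotation, strand setting and the filter named with the table are not given in the sources used here. Overlapping genes may therefore share reads.

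Fold changes on the log2 scale, with standard errors (SE) and 95% intervals, came from edgeR 4.0.16 (R 4.3.3): TMM scaling, filterByExpr (minimum count 10, minimum total 15), and a quasi-likelihood F test on 4 group means over all 12 libraries, two-sided, with Benjamini-Hochberg adjustment over 10993 genes and a threshold of 0.05. Normalised CPM uses the TMM factors. Gene positions and exon lengths come from GENCODE M21 on GRCm38, the assembly that mm10 also names, and promoter sequence from RefSeq on GRCm38.p6. The labels do not say what the replicate numbers stand for, so the main fit did not use them as pairs. Same-numbered replicates of different groups had residual correlations of -0.13 to 0.12 in 18 pairs, which cannot exclude a shared donor or batch.

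The members and the gene lists were chosen with earlier results of these data known, and the lists were written from general knowledge. Named genes are all members, up to 3 called genes per direction of each list with a mean count of at least 50, and the 3 genes most correlated with each member; others named with values are Sin3a, Sin3b, Fut8 and Fntb, chosen after their values were seen. Not every gene that the rule names is reported: marker genes are given mostly as sums, and several others are left out. The steps were tested on simulated data. Alternatives were DESeq2 1.42.0, limma-voom (limma 3.58.1), 2 other scalings, no low-count filter, only the groups compared, the replicate number as a block and leaving out each library. Leaving out SETBP1 replicate 3 and NRAS replicate 3 together was added after seeing the data.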

Additional observations from a re-analysis of the deposited data

How the results depend on the processing

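The number of network members past the threshold kept within 1.5 times of its value with DESeq2, limma-voom, DESeq2-style size factors, no low-count filter and the replicate block in all 6 comparisons. Fitting only the groups compared gave 0 members in place of 3 for SETBP1 against empty, 2 in place of 1 for SETBP1+NRAS against NRAS and 1 in place of 3 for SETBP1+NRAS against SETBP1, and 1, 4 and 12 Myc-activated genes in place of 23, 0 and 22. That fit has 6 libraries, and for SETBP1 against empty it called 110 genes in all, against 1633. Library size only gave 1 member in place of 2 for NRAS against empty, and it moved the median of all genes to -0.10 there and to -0.13 for SETBP1+NRAS against empty. DESeq2 gave 1 Myc-activated gene for SETBP1+NRAS against NRAS. Leaving out SETBP1 replicate 3 and NRAS replicate 3 together, chosen after seeing the data, gave 2 members and 2 Myc-activated genes for SETBP1+NRAS against NRAS and 5 Myc-activated genes for the interaction, all 5 lower.

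Leaving out 1 library at a time, or those 2 together, gave 1 to 3 members for SETBP1 against empty, 1 to 2 for NRAS against empty, 3 to 6 for SETBP1+NRAS against empty, 0 to 2 against NRAS and 1 to 5 against SETBP1. The Myc-activated counts ran from 13 to 25 for SETBP1 against empty, 0 to 4 for SETBP1+NRAS against NRAS, 15 to 24 against SETBP1 and 0 to 5 for the interaction. Without SETBP1 replicate 3 SETBP1+NRAS against NRAS had 2 members and 4 Myc-activated genes, and without SETBP1 replicate 1 SETBP1+NRAS against SETBP1 had 5 members. The cause of these shifts was not tested.

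Among the members, signs turned only for fold changes that had not passed. Over the same leave-outs the log2 value of Max for SETBP1 against empty ran from -0.115 to 0.114. For NRAS against empty it ran from -0.922 to 0.122, and its interaction from -0.0512 to 1.15. That of Mxd3 ran from -0.135 to 0.251 with SETBP1 and from -0.310 to 0.0759 in the interaction. That of Mnt ran from -0.108 to 0.0531 with SETBP1 and from -0.161 to 0.104 with NRAS. Mlx with NRAS, at -0.0014, ran from -0.0573 to 0.0398 and turned to 0.000726 with DESeq2, 0.000601 with DESeq2-style size factors and 0.00604 with no filter. Myc between SETBP1+NRAS and SETBP1, at 0.02, ran from -0.0485 to 0.0701 and turned to -0.0596 with library size only.

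With the replicate number as a block the fall of Mlx with both mutants lost its call, at -0.21 and adjusted p = 0.0622 (edgeR), and the members past the threshold for SETBP1+NRAS against empty were 3 in place of 4; no other member call changed. The labels do not say what the numbers stand for, and 1 of 18 same-numbered pairs had a residual correlation over 0.1. With so few libraries a group, such correlations cannot exclude a shared donor or batch. DESeq2 gave no adjusted p for 3 interaction values. Depth limits the values of Mycl, Mlxipl and Mycn, at 0 to 83 reads a library.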
